A study of Mus musculus and Homo sapiens with 30 samples.

Results

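The genes described here are the receptors, receptor substrates, forkhead factors and binding proteins of insulin and insulin-like growth factor (IGF) signalling. They were taken by name and not by a rule on measured values, but earlier results of these data were known at that point. The set holds 10 mouse genes (Insr, Igf1r, Igf2r, Irs1, Irs2, Foxo1, Foxo3, Igfbp3, Igfbp4 and Igfbp6) and the human genes INSR, IGF1R, IRS1 and IRS2, given by Ensembl ID (ENSG00000171105, ENSG00000140443, ENSG00000169047 and ENSG00000185950). They are 14 of the 118532 gene IDs of the series, 10 of 56980 in the mouse table and 4 of 61552 in the human table, and every one was found. In the mouse table they stand as ENSMUSG00000005534 (Insr), ENSMUSG00000005533 (Igf1r), ENSMUSG00000023830 (Igf2r), ENSMUSG00000055980 (Irs1), ENSMUSG00000038894 (Irs2), ENSMUSG00000044167 (Foxo1), ENSMUSG00000048756 (Foxo3), ENSMUSG00000020427 (Igfbp3), ENSMUSG00000017493 (Igfbp4) and ENSMUSG00000023046 (Igfbp6).

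Poly(A) RNA was sequenced from 3 established cell lines in 3 media, with 3 libraries per medium in E0771 (mouse mammary cancer) and in NMuMG (mouse mammary gland epithelium), and 4 per medium in SkBr3 (human breast cancer). The labels call all of them breast cancer. After 36 h of growth the cells spent 16 h in 1 of 3 media: plain growth medium (control), or a mix of 50% growth medium and 50% secretome, the medium conditioned by inguinal fat cells, either lean or obese. The growth media of all 3 lines are given with 10% FBS (fetal bovine serum). That of E0771 and SkBr3 was DMEM, and that of NMuMG is given with 4.5 g/L glucose and insulin at 10 mcg/ml. The glucose level of the other medium is not stated. The secretome mixes therefore held less growth medium, and in NMuMG less of its added insulin, than the control. The lean and the obese mix were matched in this respect. The labels do not state the species of the fat cells or whether the secretomes held insulin or IGFs, and they do not say that replicates were separate cultures, so the p-values measure the spread between these libraries, which may be technical.

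Library totals were 22929035 to 31094119 counts in E0771, 23966897 to 29686456 in NMuMG and 18479433 to 29195499 in SkBr3. Levels are given in CPM, the count of a gene relative to the library total on the usual scale, with the SD over replicates, and no molecular identifiers were used. The 6 epithelial markers summed to 6016 to 7269 CPM in NMuMG libraries and to 229 to 258 in E0771, where the sum was almost all Krt8 and Cdh1, Epcam, Krt5, Krt14 and Krt18 were at or near 0. In E0771 4 fibroblast markers (Col1a1, Col1a2, Pdgfra and Dcn) summed to 758 to 840 CPM in control medium, 530 to 729 with the obese secretome and 295 to 321 with the lean secretome, and to at most 6.22 in NMuMG. That fall was mostly Col1a1: Pdgfra had means of 117, 116 and 102 CPM in the same order, and Col1a2 and Dcn were near 0. The 6 adipocyte markers summed to at most 1.57 CPM in a mouse library, with 1 of them at 0 in all E0771 and 3 in all NMuMG libraries. Immune markers summed to at most 4.06 CPM and endothelial markers to at most 5.62. Markers were not looked up in the human table, for which no names were used here. In bulk RNA, fewer cells of a kind and less RNA per cell cannot be told apart.

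Insulin and the IGFs bind receptor tyrosine kinases at the cell surface, which phosphorylate the insulin receptor substrates (IRS proteins) and so switch on PI3K, AKT and mTOR and, in another branch, the MAP kinases. AKT phosphorylates the FOXO transcription factors and keeps them out of the nucleus; when insulin is low, FOXO factors enter it and raise genes such as Insr and Irs2 in many tissues. IGF binding proteins hold IGFs outside the cell, and in the breast the pathway is known for driving growth of epithelium and tumours.

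The gene starts of Irs1, Igf2r and Igfbp4 are shown because Irs1 was present in NMuMG alone of the mouse lines and holds an insulin response motif, and Igf2r and Igfbp4 had the largest falls of the members in E0771. Each line gives the 250 bases upstream of the RefSeq gene start on GRCm38.p6, 5′ to 3′ on the strand of the gene. The windows are Irs1 at chr1:82291440-82291689 (minus strand), Igf2r at chr17:12769707-12769956 (minus strand) and Igfbp4 at chr11:99040994-99041243 (plus strand). Capitals mark TGTTTTG, an insulin response motif bound by FOXO factors at other genes.
Irs1: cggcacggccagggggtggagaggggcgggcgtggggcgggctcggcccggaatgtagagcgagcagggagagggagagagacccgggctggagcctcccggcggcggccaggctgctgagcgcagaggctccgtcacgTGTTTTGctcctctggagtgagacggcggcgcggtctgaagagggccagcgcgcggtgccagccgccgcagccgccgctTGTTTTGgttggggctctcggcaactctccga
Igf2r: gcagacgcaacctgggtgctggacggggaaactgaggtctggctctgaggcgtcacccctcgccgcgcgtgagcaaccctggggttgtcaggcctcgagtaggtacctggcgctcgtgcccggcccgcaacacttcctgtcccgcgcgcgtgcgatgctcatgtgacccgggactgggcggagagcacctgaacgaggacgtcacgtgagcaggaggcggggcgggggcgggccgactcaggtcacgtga
Igfbp4: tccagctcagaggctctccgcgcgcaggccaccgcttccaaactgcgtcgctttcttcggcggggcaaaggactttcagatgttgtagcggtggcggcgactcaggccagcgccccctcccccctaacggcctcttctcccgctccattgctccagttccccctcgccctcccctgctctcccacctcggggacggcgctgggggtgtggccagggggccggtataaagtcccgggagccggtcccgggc

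The TGTTTTG motif begins 111 and 32 bases upstream of the Irs1 start and 37 bases upstream of the Irs2 start, each time on the strand of the gene. It was chosen after these windows had been read. With both strands searched, it is in 2 of the 9 mouse members that have a window (Insr has none here) and in 5.56% of 32851 windows of the same length. The FOXO element GTAAACA, searched on both strands, is in 0 of the 9 and in 3.17% of all windows; this says only that these letters are not in these 250 bases. The share of G and C was 72.4% in the window of Irs1, 72.8% in Irs2 and 69.2% in both Igf2r and Igfbp4, and over the 9 members it ran from 49.6% (Igfbp6) to 77.6% (Igf1r), against a median of 52.4% over all windows.

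Both mouse lines carried the receptors in control medium, but E0771 lacked counts for several of the other members. On a per-length scale (CPM per kb of exon), Igfbp4 stood highest in E0771 at 203.5 ± 2.41 (SD, n = 3), followed by Igfbp6 at 30.7, Foxo3 at 9.82, Igf1r at 8.72, Insr at 6.72, Igf2r at 4.98 and Irs2 at 4.24, with no overlap between neighbours. Igfbp3 and Irs1 were at 0 in E0771 control medium and Foxo1 near 0. In NMuMG, Igfbp4 at 34.8 ± 1.36 and Igfbp3 at 34.4 ± 1.73 overlapped at the top of the same scale, then came Igf2r at 12.4, Irs2 at 10.4, Igf1r at 8.04, Foxo3 at 6.95 and Irs1 at 4.85. Insr at 3.35 ± 0.0819 and Foxo1 at 3.35 ± 0.0510 overlapped, and Igfbp6 was lowest at 0.516.

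Between the lines in control medium, edgeR's quasi-likelihood test with Benjamini-Hochberg adjustment called 9 of 10 mouse members at an adjusted p under 0.05, where 80.5% of all 16529 genes tested were called. Insr was 1.86-fold higher in E0771 (adjusted p = 1.1e-19), Igf2r 2.69-fold lower (adjusted p = 1.8e-26) and Irs2 2.64-fold lower (adjusted p = 5.7e-24). Igf1r did not differ beyond its spread, with a log2 fold change of 0.01 (95% interval -0.16 to 0.18, adjusted p = 0.931). Foxo3 was 1.31-fold, Igfbp4 5.41-fold and Igfbp6 54.8-fold higher in E0771. The line and its medium, which the labels describe with added insulin and a stated glucose level for NMuMG only, cannot be told apart in this comparison.

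The absent members were NMuMG genes. Irs1 had 0 counts in all E0771 libraries except lean replicate 1, with 2 counts; set against the floor of 3 counts over the group (0.0389 CPM), it was at least 1140.5-fold higher in NMuMG control medium. Igfbp3, the main carrier of IGFs in blood, had 0 counts in all 9 E0771 libraries and was at least 2770-fold higher in NMuMG. Foxo1 had 13 counts over the 9 E0771 libraries, and its level in NMuMG control medium was 745 times that of E0771 (counting interval 254.65 to 3615.5). These 3 genes did not pass the filter on low counts in E0771, so 7 of the 10 mouse members were tested there.

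In E0771, Igf2r, Foxo3 and Igfbp4 were lower and Igfbp6 was higher with the lean than with the obese secretome, and Insr, Igf1r and Irs2 were not called. Of the 7 members tested, 4 were called between lean and obese, 1 higher and 3 lower, and 3 had libraries that did not overlap. Over all 13813 genes tested 52.7% were called, 25.8% higher and 26.9% lower, and 60.3% did not overlap. The members' median log2 fold change was -0.07, against 0.00347 over all genes.

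In NMuMG the same contrast gave more calls upward: 9 of 10 members were called, 8 higher and 1 lower with the lean secretome, and 8 had libraries that did not overlap. The members called higher include Irs1, Foxo1 and Igfbp3, which were not tested in E0771. Over all 15014 genes 35.0% were called, 17.6% higher and 17.4% lower, and 45.2% did not overlap. The members' median log2 fold change was 0.29, against -0.00232 over all genes. In SkBr3 3 of the 4 human members were called, all higher, and these 3 did not overlap. Over all 14874 genes 44.1% were called, 21.1% higher and 23.1% lower, and 34.9% did not overlap. The median of the 4 was 0.56, against 0.004 over all genes.

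**Figure D1:**
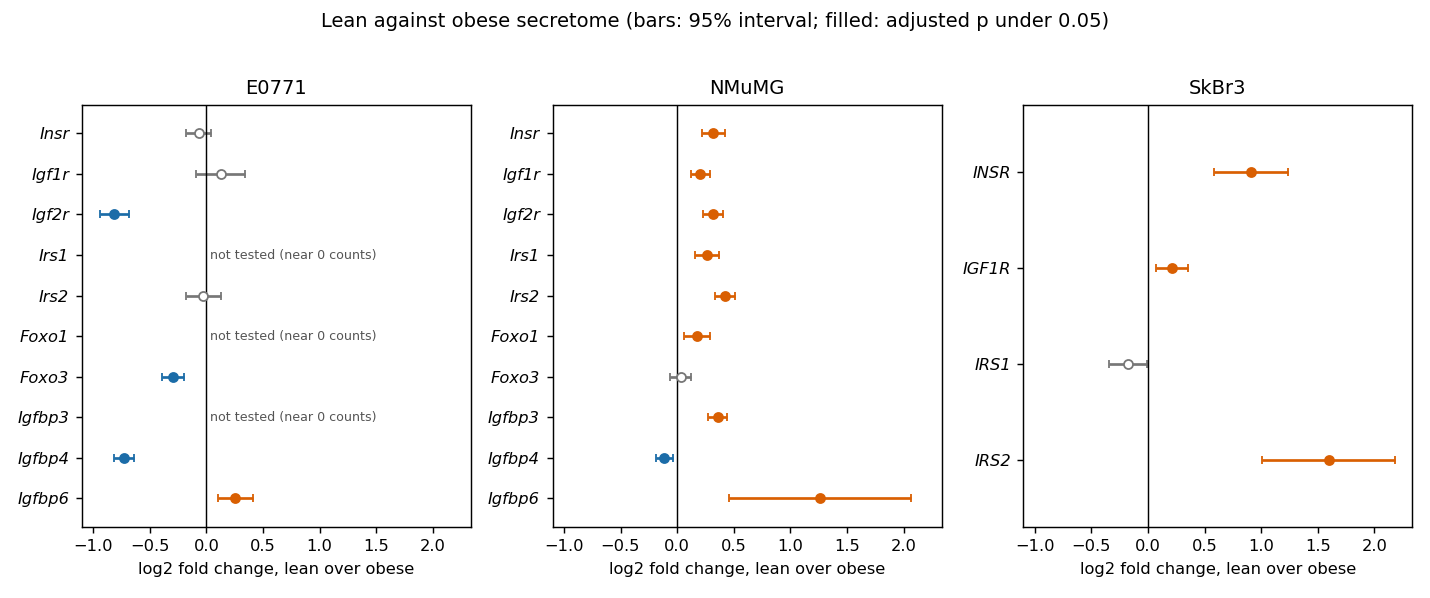
Log2 fold change of lean over obese secretome (horizontal axis) for each member in the 3 lines; bars are 95% intervals and filled points have an adjusted p under 0.05. In E0771 Igf2r and Igfbp4 lie farthest to the left, at -0.81 and -0.73, while in NMuMG all filled points but Igfbp4 lie to the right of 0, and in SkBr3 IRS2 lies farthest to the right at 1.60.

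Insr encodes the insulin receptor. In E0771 it stood at 96.1, 96.1 and 84.8 CPM in control medium, 77.4, 83.2 and 79.8 with the obese secretome and 74.6, 75.3 and 80.3 with the lean secretome. Both secretome groups lay below all controls and overlapped each other. From obese to lean the log2 fold change was -0.07 (SE 0.0521, 95% interval -0.18 to 0.04, adjusted p = 0.286).

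In NMuMG the insulin receptor gene Insr was at 47.3, 45.9 and 45.1 CPM in control medium, 40.5, 45.0 and 41.4 with the obese secretome and 53.4, 52.5 and 53.8 with the lean secretome. The 3 lean libraries were above the other 6. Insr rose 1.25-fold from obese to lean (log2 0.32, SE 0.0493, adjusted p = 3.22e-06) and 1.16-fold from control to lean (log2 0.21, adjusted p = 0.000654). The difference between the lines in the lean against obese response, E0771 minus NMuMG, was -0.37 on the log2 scale (SE 0.0718, adjusted p = 6.05e-05).

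In SkBr3 the human gene INSR was at 9.31, 8.04, 10.5 and 11.3 CPM in control medium, 12.9, 9.35, 9.27 and 12.0 with the obese secretome and 21.6, 22.6, 14.9 and 24.0 with the lean secretome. All 4 lean libraries were above the other 8, with replicate 3 the lowest of them. INSR rose 1.88-fold from obese to lean (log2 0.91, SE 0.151, adjusted p = 0.000312) and 2.09-fold from control to lean (log2 1.06, adjusted p = 8.05e-05). SkBr3 was not tested against the mouse lines, whose tables are separate.

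Igf1r, the receptor that carries most IGF growth signals, showed small differences. In E0771 it stood at 159, 150.4 and 130.2 CPM in control medium, 130.5, 145 and 129 with the obese secretome and 135, 143 and 166 with the lean secretome. All 3 groups overlapped, and from obese to lean the log2 fold change was 0.13 (95% interval -0.09 to 0.34, adjusted p = 0.300).

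In NMuMG the IGF receptor gene Igf1r was at 135, 131 and 139 CPM in control medium, 126, 133 and 120.4 with the obese secretome and 150.1, 138 and 153 with the lean secretome. The lean libraries were above all obese ones and overlapped the controls. Igf1r rose 1.15-fold from obese to lean (log2 0.20, SE 0.0407, adjusted p = 0.000149). Its 1.09-fold rise over control (adjusted p = 0.0126) was not called without control replicate 1 (0.0524), control replicate 2 (0.0624), lean replicate 1 (0.0657) or lean replicate 3 (0.0685). The lines did not differ beyond error in the lean against obese response of Igf1r (-0.06, 95% interval -0.30 to 0.18, adjusted p = 0.775).

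IGF1R in SkBr3 was at 19.1, 20.3, 19.1 and 18.6 CPM in control medium, 20.2, 20.8, 17.6 and 20.1 with the obese secretome and 24.3, 25.6, 21.6 and 21.5 with the lean secretome. The lean libraries lay just above the others. IGF1R rose 1.16-fold from obese to lean (log2 0.21, SE 0.0694, adjusted p = 0.0162), a call lost without lean replicate 2 (0.0769) or obese replicate 3 (0.0719). From control to lean it rose 1.18-fold (adjusted p = 0.00816).

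Igf2r encodes the receptor that takes IGF2 and mannose 6-phosphate proteins to the lysosome and has no kinase of its own. It was at 46.4, 48.7 and 44.0 CPM in E0771 control medium, 40.4, 46.3 and 42.6 with the obese secretome and 25.2, 24.2 and 24.5 with the lean secretome. The lean libraries were far below the other 6, which overlapped. Igf2r fell 1.76-fold from obese to lean in E0771 (log2 -0.81, SE 0.0627, adjusted p = 1.58e-10) and 1.90-fold from control to lean (log2 -0.93, adjusted p = 1.23e-11).

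In NMuMG Igf2r was at 116, 113 and 118 CPM in control medium, 112, 114 and 103 with the obese secretome and 147, 131 and 134 with the lean secretome. Here the lean libraries were the highest of the 9. Igf2r rose 1.24-fold from obese to lean (log2 0.31, SE 0.0432, adjusted p = 6.29e-07) and 1.19-fold from control to lean (adjusted p = 1.51e-05). The difference in response between the lines was the largest among the members called, at -1.11 on the log2 scale (SE 0.0755, adjusted p = 1.16e-14). In E0771 the fibroblast marker sum, mostly Col1a1, was also lowest in the lean libraries; its part in the fall of Igf2r was not tested.

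**Figure D2:**
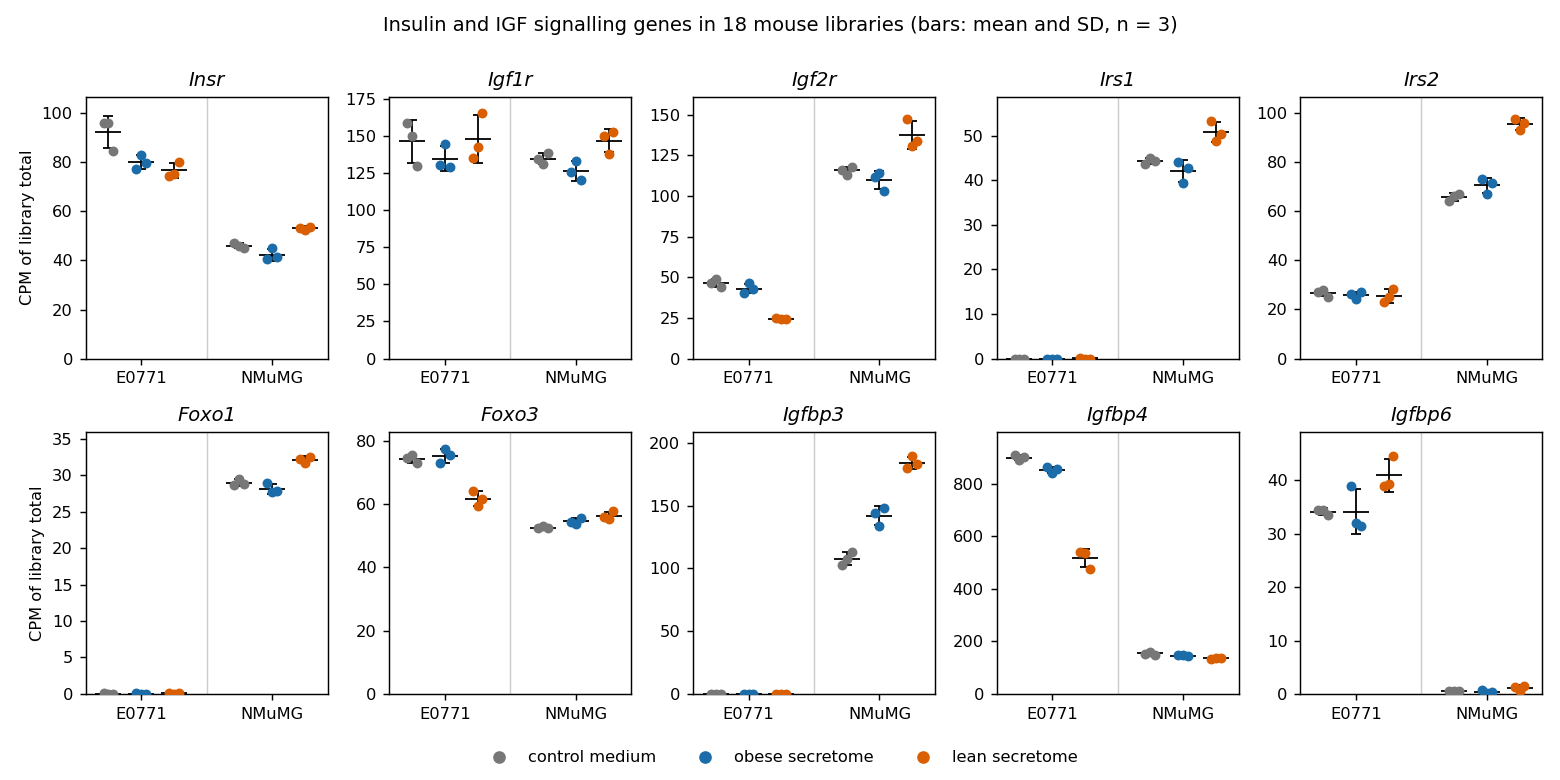
Levels of the 10 mouse members in CPM of the library total (vertical axes, each from 0) in E0771 and NMuMG; points are libraries in control medium, obese and lean secretome, and bars show the mean and SD (n = 3). Igf2r and Igfbp4 are lowest with the lean secretome in E0771, Irs2 and Igfbp3 highest with it in NMuMG, and Irs1, Foxo1 and Igfbp3 lie at or near 0 in E0771.

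The IRS proteins couple the receptors to PI3K, and in NMuMG both genes rose. Irs2 was at 64.0, 66.3 and 66.9 CPM in NMuMG control medium, 73.1, 67.2 and 71.7 with the obese secretome and 97.7, 93.1 and 95.9 with the lean secretome. The 3 groups did not overlap, with control lowest and lean highest. Irs2 rose 1.34-fold from obese to lean (log2 0.42, SE 0.0428, adjusted p = 1.01e-09) and 1.46-fold from control to lean (log2 0.54, adjusted p = 1.77e-12). The obese step over control was 0.12 on the log2 scale with an adjusted p of 0.112, and 0.0360 without obese replicate 2.

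Irs1 in NMuMG was at 43.8, 45.1 and 44.3 CPM in control medium, 44.2, 39.4 and 42.8 with the obese secretome and 53.3, 48.9 and 50.4 with the lean secretome. The lean libraries lay above the other 6. Irs1 rose 1.20-fold from obese to lean (log2 0.26, SE 0.0521, adjusted p = 0.000143) and 1.15-fold from control to lean (adjusted p = 0.00189). Exons of Irs1 overlap Gm9747, a gene of the opposite strand, over 2822 bases, and whether the counting used strand is not given in the sources used here; Gm9747 was at most 0.0826 CPM in NMuMG. Exons of Irs2 and Foxo1 also overlap opposite-strand genes, which were at most 0.393 CPM in NMuMG.

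In E0771 only Irs2 of the IRS pair had counts to test. Irs2 was at 27.2, 28.0 and 25.3 CPM in E0771 control medium, 26.3, 24.4 and 27.0 with the obese secretome and 23.1, 25.0 and 28.4 with the lean secretome. The groups overlapped throughout. From obese to lean the log2 fold change was -0.03 (95% interval -0.18 to 0.13, adjusted p = 0.779), and it differed from that of NMuMG by -0.43 (SE 0.0836, adjusted p = 5.7e-05).

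In SkBr3 the IRS genes moved in opposite directions from control to lean medium. IRS1 was at 19.4, 20.5, 19.7 and 19.6 CPM in control medium, 15.5, 18.1, 16.9 and 17.5 with the obese secretome and 16.0, 17.8, 14.9 and 13.0 with the lean secretome. Both secretome groups were below all controls and overlapped each other. IRS1 fell 1.32-fold from control to lean (log2 -0.40, SE 0.081, adjusted p = 0.000288). From obese to lean the log2 fold change was -0.17 (95% interval -0.34 to -0.01, adjusted p = 0.0848), a value that passed without lean replicate 2 (0.0212) or obese replicate 1 (0.0473).

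IRS2 in SkBr3 was a low gene, with 6 to 16 counts in a control library, 8 to 15 in an obese one and 17 to 39 in a lean one. The levels were 0.417, 0.613, 0.433 and 0.271 CPM in control medium, 0.362, 0.378, 0.349 and 0.514 with the obese secretome and 1.21, 1.54, 0.886 and 1.36 with the lean secretome. All 4 lean libraries were above the other 8, and replicate 3 was again the lowest. IRS2 rose 3.02-fold from obese to lean (log2 1.60, SE 0.283, adjusted p = 0.000101) and 2.77-fold from control to lean (log2 1.47, adjusted p = 0.00019).

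**Figure D3:**
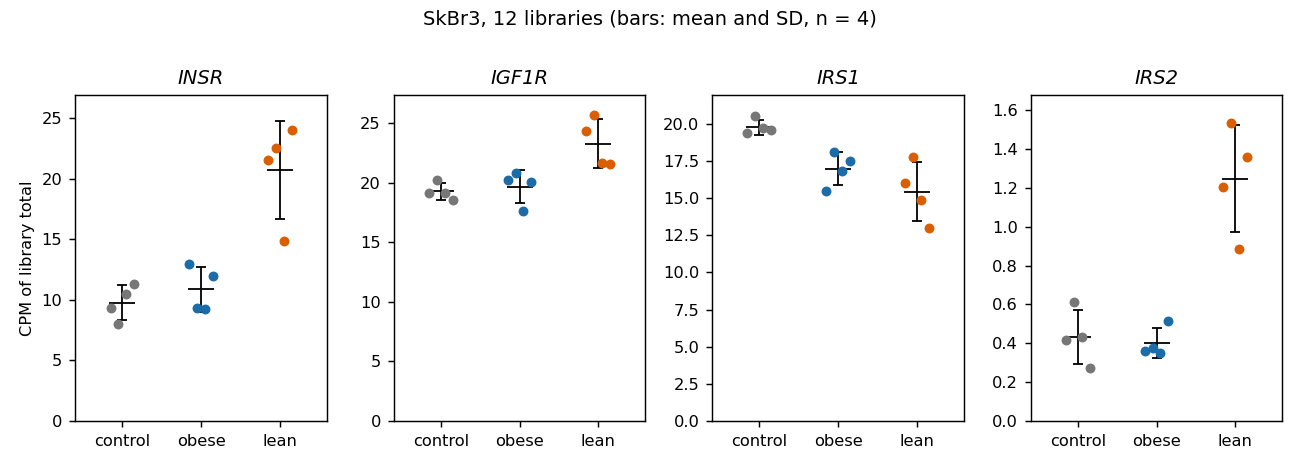
Levels of the 4 human members in CPM of the library total (vertical axes, each from 0) in SkBr3 by medium; points are libraries and bars show the mean and SD (n = 4). The lean libraries of INSR lie between 14.9 and 24.0 CPM and those of IRS2 between 0.886 and 1.54, above all control and obese libraries, while IRS1 is highest in control medium.

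FOXO factors act where AKT is low. Foxo3 was at 74.5, 75.4 and 73.1 CPM in E0771 control medium, 73.0, 77.5 and 75.5 with the obese secretome and 64.1, 59.4 and 61.7 with the lean secretome. The lean libraries were below the other 6. Foxo3 fell 1.23-fold from obese to lean in E0771 (log2 -0.29, SE 0.0476, adjusted p = 1.27e-05) and 1.21-fold from control to lean (adjusted p = 2.2e-05).

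In NMuMG Foxo3 was at 52.4, 53.0 and 52.4 CPM in control medium, 54.5, 53.8 and 55.5 with the obese secretome and 56.0, 55.2 and 57.8 with the lean secretome. The obese and lean libraries overlapped above the controls. From obese to lean the log2 fold change was 0.03 (95% interval -0.06 to 0.12, adjusted p = 0.629). The lines differed in this response of Foxo3 by -0.31 (SE 0.0639, adjusted p = 0.000148).

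Foxo1, the main FOXO factor of the insulin response in liver, was at 28.7, 29.5 and 28.8 CPM in NMuMG control medium, 29.0, 27.7 and 27.8 with the obese secretome and 32.3, 31.6 and 32.5 with the lean secretome. The lean libraries were the highest, by a narrow gap. Foxo1 rose 1.13-fold from obese to lean (log2 0.18, SE 0.0562, adjusted p = 0.0124). Its 1.11-fold rise over control (adjusted p = 0.0285) was lost with no filter on low counts (0.0614) and without control replicate 1 (0.0936), control replicate 3 (0.0717), lean replicate 1 (0.0771) or lean replicate 3 (0.0649).

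Of the binding proteins, Igfbp3 rose in steps. In NMuMG it was at 103, 107 and 113 CPM in control medium, 144, 134 and 148 with the obese secretome and 179.5, 189 and 183 with the lean secretome. The 3 groups did not overlap. Igfbp3 rose 1.28-fold from obese to lean (log2 0.36, SE 0.0407, adjusted p = 1.54e-08), 1.71-fold from control to lean (log2 0.77, adjusted p = 4.29e-16) and 1.33-fold from control to obese (log2 0.41, SE 0.0417, adjusted p = 3.93e-08).

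Igfbp4, a binding protein that inhibits IGF action until it is cleaved, was the highest member per exon length in E0771. It was at 909, 888 and 899.5 CPM in control medium, 862, 839 and 854 with the obese secretome and 539, 536 and 476 with the lean secretome. The lean libraries were far below the others. Igfbp4 fell 1.66-fold from obese to lean (log2 -0.73, SE 0.0411, adjusted p = 1.75e-12) and 1.75-fold from control to lean (log2 -0.81, adjusted p = 2.53e-13). The fibroblast marker Col1a1 went in the same direction in these libraries, from a mean of 684 CPM in control medium to 523 with the obese and 204 with the lean secretome, while Pdgfra went from 116 to 102 CPM between obese and lean and Col1a2 and Dcn were near 0. The part of these markers in the fall of Igfbp4 was not tested.

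In NMuMG Igfbp4 was at 154, 160.0 and 148 CPM in control medium, 146, 146 and 143 with the obese secretome and 133, 138 and 136 with the lean secretome. The groups did not overlap, with lean lowest. Igfbp4 fell 1.08-fold from obese to lean (log2 -0.11, SE 0.0366, adjusted p = 0.0156), a call lost without lean replicate 1 (0.0633) or obese replicate 1 (0.0537), and 1.13-fold from control to lean (adjusted p = 0.000149). The response of Igfbp4 differed between the lines by -0.60 (SE 0.055, adjusted p = 2.21e-11).

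Igfbp6, which prefers IGF2, was an E0771 gene. It was at 34.5, 34.5 and 33.5 CPM in E0771 control medium, 39.0, 32.0 and 31.4 with the obese secretome and 38.9, 39.4 and 44.5 with the lean secretome. One obese library reached into the lean range, and the rise from obese to lean was 1.20-fold (log2 0.26, SE 0.0730, adjusted p = 0.00487). From control to lean Igfbp6 rose 1.19-fold with no overlap (adjusted p = 0.00564).

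In NMuMG Igfbp6 had only 6 to 39 counts in a library. It stood at 0.573, 0.613 and 0.536 CPM in control medium, 0.709, 0.248 and 0.378 with the obese secretome and 1.24, 0.482 and 1.53 with the lean secretome. The groups overlapped. The 2.40-fold rise from obese to lean (log2 1.26, 95% interval 0.46 to 2.07, adjusted p = 0.0117) was lost without lean replicate 1 (0.0521) or 3 (0.101), or obese replicate 2 (0.0750) or 3 (0.0552). The 1.88-fold rise over control (adjusted p = 0.0492) was lost with DESeq2 (0.0959) and without control replicate 1 (0.116), 2 (0.0937) or 3 (0.127), lean replicate 1 (0.160) or lean replicate 3 (0.288).

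The comparisons with control medium share the control libraries and do not keep the share of growth medium equal. From control to lean, 5 of 7 members were called in E0771, 1 higher and 4 lower, where 56.3% of all genes were called (27.3% higher, 29.0% lower). In NMuMG 9 of 10 were called, 8 higher and 1 lower, against 38.2% of all genes (19.1% higher, 19.1% lower). In SkBr3 4 of 4 were called, 3 higher and 1 lower, against 48.8% (23.7% higher, 25.1% lower). From control to obese, 1 of 7 was called in E0771 (2.61% of all genes), 1 of 10 in NMuMG (5.01%) and 0 of 4 in SkBr3 (1.16%). In NMuMG the call was Igfbp3. In SkBr3 IRS1 alone of the 4 had an unadjusted p under 0.05 in edgeR (0.00968, adjusted p = 0.182), where 2039 of 14874 genes did. DESeq2 also called 0 of the 4. The adjusted p of IRS1 was 0.0340 when only the obese and control libraries were fitted.

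The E0771 call from control to obese was Insr, which fell 1.16-fold (log2 -0.21, SE 0.0519, adjusted p = 0.0290). That call was lost without control replicate 1 (0.208) or 2 (0.177), or obese replicate 1 (0.132) or 3 (0.136). From control to lean in E0771 Insr fell 1.21-fold (log2 -0.28, SE 0.0518, adjusted p = 6.29e-05).

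The interaction of line and medium, E0771 minus NMuMG, called 5 of the 10 mouse members for lean against obese, where 34.2% of 16529 genes were called. These were Insr, Igf2r, Irs2, Foxo3 and Igfbp4, with the values given above. Igfbp6 had a difference of -0.99 (SE 0.402, adjusted p = 0.0605), which passed with DESeq2 (0.00533), with no filter on low counts (0.00465) and with a replicate block (0.0304), and without E0771 lean replicate 3 (0.0455), E0771 obese replicate 3 (0.0447), NMuMG lean replicate 2 (0.00111) or NMuMG obese replicate 1 (0.0139). The same 5 members were called for lean against control (34.5% of all genes), and 0 of 10 for obese against control (1.69%). For obese against control, 0 members had an unadjusted p under 0.05 in edgeR, where 2176 of 16529 genes did, and DESeq2 called 0 members. Interactions of Irs1, Foxo1 and Igfbp3 cannot be read, since E0771 had almost no counts of them.

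The other genes of the pathway, 73 in 9 lists, give the setting of these changes in the mouse lines. Between lean and obese, 51 of the 73 were tested in E0771, of which 17 rose, 18 fell and 16 were not called, where 52.7% of all genes were called (25.8% higher, 26.9% lower). In NMuMG 62 were tested, of which 16 rose, 11 fell and 35 were not called, where 35.0% of all genes were called (17.6% higher, 17.4% lower). The median log2 fold change over the tested genes of the lists was -0.00622 in E0771 and -0.00704 in NMuMG, close to that over all genes. From control to obese 0 rose and 2 of 51 fell in E0771, where 2.61% of all genes were called. In NMuMG 0 rose and 5 of 62 fell, where 5.01% of all genes were called.

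The ligand genes were at or near 0 in the mouse lines. Ins1 and Ins2, the insulin genes, had 0 counts in all 18 libraries. Igf1 had 0 counts in E0771 and at most 9 in an NMuMG library, and Igf2 had at most 1 count in an E0771 library and 3 to 20 in an NMuMG library (at most 0.715 CPM).

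Among the other IGF binding proteins with their proteases and inhibitors, 1 of 3 tested rose and 1 fell in E0771. The one that fell was Igfbp5, a binding protein that sticks to the matrix (log2 -0.61, adjusted p = 3.06e-06). In NMuMG 2 of 5 rose and 1 fell, and the largest rise was that of Stc2, an inhibitor of the protease that cleaves Igfbp4 (log2 0.44, adjusted p = 3.86e-05). Of the other substrates and adaptors 3 of 6 rose and 1 fell in E0771, led by Sh2b2, an adaptor of the insulin receptor (log2 0.74, adjusted p = 8.89e-09), and in NMuMG 1 of 6 rose and 0 fell.

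Of the brakes that act at the receptor, 2 of 4 tested rose and 1 fell in E0771, and 2 of 8 rose and 2 fell in NMuMG. Socs1, a suppressor of cytokine and insulin signalling, rose in E0771 (log2 0.54, adjusted p = 2.67e-05) and in NMuMG (log2 0.65, adjusted p = 0.00137), and the difference was not called (-0.09, adjusted p = 0.794). In NMuMG Enpp1, a membrane protein that inhibits the insulin receptor, fell (log2 -0.66, adjusted p = 8.43e-09). Socs3, a relative of Socs1, fell in NMuMG (log2 -0.44, adjusted p = 7.01e-08) and in E0771 (log2 -0.30, adjusted p = 0.00746), with a difference of 0.15 that was not called (adjusted p = 0.287).

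Among the PI3K and AKT genes 4 of 10 rose and 4 fell in E0771, and 2 of 10 rose and 1 fell in NMuMG. Pik3cb, a catalytic subunit of PI3K, rose in E0771 from 25.8 ± 4.77 to 60.1 ± 4.93 CPM (SD, n = 3), or 1.21 on the log2 scale (SE 0.108, adjusted p = 1.42e-06). The response of Pik3cb was 1.11 higher on the log2 scale in E0771 than in NMuMG (adjusted p = 5.97e-08). In NMuMG Pik3cb also rose, by 0.104 to 0.137 with 1 library left out, a call lost in 6 of 11 alternative analyses. Of the brakes on PI3K and AKT 2 of 5 tested rose and 1 fell in E0771, and 1 of 6 rose and 0 fell in NMuMG. The one that fell in E0771 and the one that rose in NMuMG were the same gene, Trib3, a pseudokinase that binds AKT (log2 -0.62, adjusted p = 6.41e-10, and 0.56, adjusted p = 5.68e-05). The difference for Trib3 was -1.15 (adjusted p = 1.93e-11).

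Of 12 genes of the TSC and mTOR complexes, 2 rose and 4 fell in E0771 and 2 rose and 3 fell in NMuMG. Of the 2 other FOXO factors, 1 was tested in E0771 and fell. In NMuMG Foxo6 fell from 28.7 ± 1.27 CPM with the obese to 16.5 ± 0.422 with the lean secretome (log2 -0.81, SE 0.0674, adjusted p = 1.62e-11), and the other was not called.

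Of the known FOXO target genes 3 of 10 tested rose and 5 fell in E0771, and 6 of 12 rose and 3 fell in NMuMG. Ccng2, a cyclin linked to cell cycle arrest, fell in E0771 from 21.8 ± 0.655 to 8.64 ± 1.33 CPM (log2 -1.35, SE 0.091, adjusted p = 2.17e-11), with a difference from NMuMG of -1.18 (adjusted p = 8.6e-12). In NMuMG Ccng2 also fell (log2 -0.204 to -0.120 with 1 library left out), a call lost in 4 of 11 alternative analyses. Fbxo32, a ubiquitin ligase of muscle wasting, fell in E0771 (log2 -0.56, adjusted p = 0.000197), with a difference from NMuMG of -0.96 (adjusted p = 0.000163). In NMuMG Fbxo32 rose (log2 0.273 to 0.578 with 1 library left out), a call lost in 5 of 11 alternative analyses.

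Cited2, a transcriptional co-regulator and FOXO target, rose in NMuMG (log2 0.42, adjusted p = 2.48e-11), and the response of E0771 minus that of NMuMG was -0.48 (adjusted p = 6.44e-10). Cdkn1b, an inhibitor of cell cycle kinases, fell in NMuMG (log2 -0.57, adjusted p = 4.33e-12) and in E0771 (log2 -0.51, adjusted p = 2.72e-08), and the difference was not called (0.08, adjusted p = 0.466). Cat, the peroxide-degrading enzyme catalase, rose in NMuMG (log2 0.64, adjusted p = 0.000482). In E0771 Cat rose from a spread-out obese group of 106 to 191 CPM to 221 to 237 CPM (log2 0.70, SE 0.210, adjusted p = 0.0304), a call lost with no filter on low counts (0.0633), with the replicate block (0.0561), with only those media fitted (0.0804) and without any of lean replicates 1 (0.0729), 2 (0.0781) and 3 (0.0620) or of obese replicates 2 (0.0680) and 3 (0.0984).

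**Figure D4:**
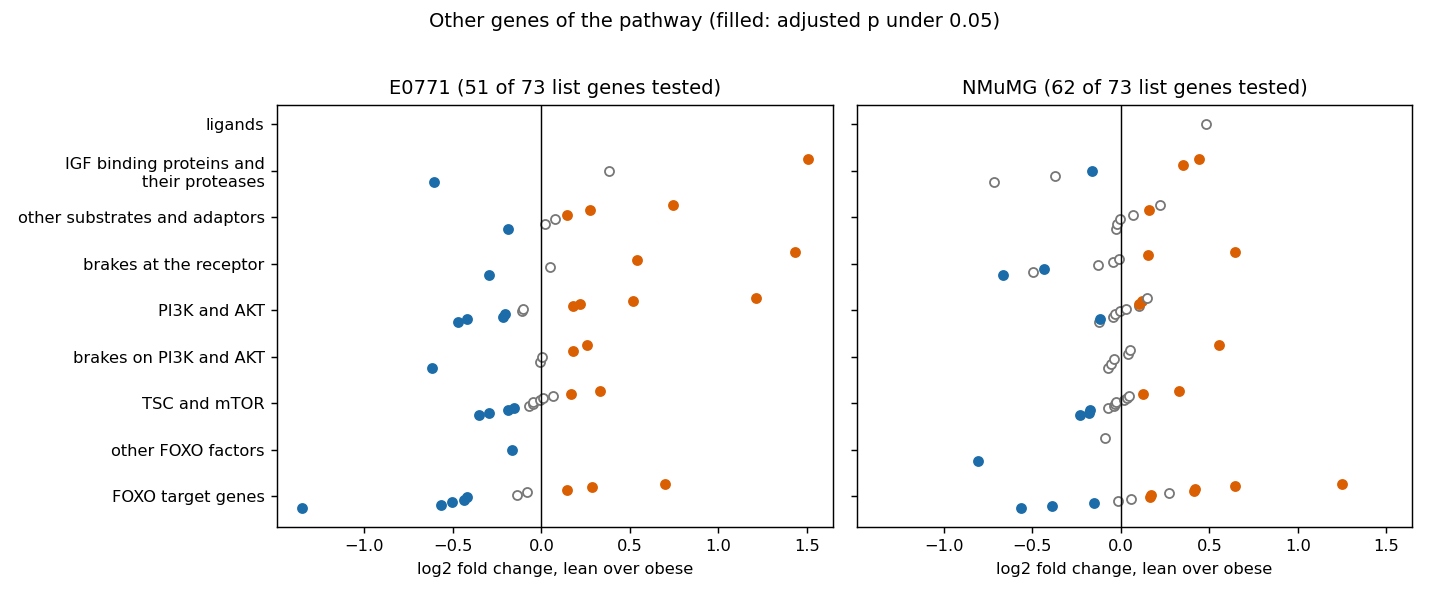
Log2 fold change of lean over obese secretome (horizontal axis) for the tested genes of 9 pathway lists (rows) in E0771 (51 of 73 genes) and NMuMG (62 of 73); each point is a gene and filled points have an adjusted p under 0.05. Filled points lie on both sides of 0 in most lists. In E0771 Ccng2 lies farthest to the left at -1.35, and the points to the right of Pik3cb (1.21) are Pappa2 and Ptprf, low genes outside the rule for names and named after their values were seen.

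The gene whose level followed a mouse member most closely is given for 9 of the 10 members, over the 18 mouse libraries, each centred on its line mean, among 9281 genes. For Igfbp4 it was Dbp, a clock-controlled transcription factor (Pearson r 0.990), for Foxo3 Ibtk (0.948), for Igfbp3 Gpr137b (0.947), for Irs2 Aox1 (0.934) and for Insr Utrn (0.884). For Igf1r it was Aff1 (0.870), for Irs1 Pigw (0.840), for Igfbp6 Hibch (0.831) and for Foxo1 Cacnb3 (0.756). The points share libraries and media. Igfbp3, with 0 counts in E0771, was flat there. The 2 counts of Irs1 and 13 of Foxo1 in E0771 also enter their values, which limits them. Igfbp6 had only 6 to 39 counts in an NMuMG library, which limits its value.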

How the data were processed

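Poly(A) RNA of 30 libraries was measured, and the authors deposited raw read counts per Ensembl gene ID in a mouse table and a human table. Per the submitters' processing notes, cutadapt 1.16, STAR 2.7.9a and featureCounts 1.6.3 were used, and the genome build is named as GRCm39 for all samples; the build of the human counts, the annotation release and the strand setting are not given in the sources used here. Mouse symbols and exon lengths came from GENCODE M21 and matched 52073 of 56980 IDs; these lengths belong to another build than the counts. No column of sample values was left unused.

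Each line was fitted with its 3 media in edgeR 4.0.16 (R 4.3.3) with filterByExpr, TMM scaling and a robust quasi-likelihood F test, and p-values were adjusted by Benjamini-Hochberg over all genes tested. The threshold for a call was 0.05. The standard error is the absolute log2 fold change divided by the square root of F. The lines were compared in a fit of the 18 mouse libraries. All members are named; of the lists, up to the 4 largest rises and 4 largest decreases per mouse line were named if called and if their log2 CPM averaged 2 or more. Members, lists and tests were chosen with earlier results of these data known. Library totals ranged from 18479433 to 31094119 counts, and intervals on counts cover counting error only. The chi-square of replicate pairs, divided by its degrees of freedom, was 1.99 to 15.2, so none was a repeat deposit.

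Alternatives were DESeq2 size factors in edgeR, the DESeq2 1.42.0 test, no filter on low counts, a replicate block, only the groups compared, and leaving out each library. On simulated counts with 100 genes changed at each fold, edgeR recovered 68% at 1.5-fold and 82% at 2-fold in E0771, 72% and 81% in NMuMG, and 73% and 92% in SkBr3. In the same order, 1.32%, 8.93% and 5.17% of calls were false. Far fewer genes were changed there than were called between lean and obese, so these shares do not carry over to the data. The gene most alike to Igf2r is not reported here.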

Additional observations from a re-analysis of the deposited data

Results flagged for a closer look

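Among the 10 mouse members, 5 had a response to the lean secretome that differed between E0771 and NMuMG by the interaction test of edgeR. Over all 16529 genes tested, 34.2% were called for lean against obese and 34.5% for lean against control. The interactions of Irs1, Foxo1 and Igfbp3 cannot be read, since E0771 had almost no counts of them. Against the obese secretome the differences in log2 fold change (E0771 minus NMuMG) were -1.11 for Igf2r, -0.599 for Igfbp4, -0.433 for Irs2, -0.371 for Insr and -0.309 for Foxo3. Against control medium they were -1.15, -0.605, -0.6, -0.463 and -0.355 in the same order. Igf2r, in both comparisons, and Insr, from control to lean, had called changes of opposite sign: they fell in E0771 and rose in NMuMG. Among the other pathway genes named, the differences between the lines for lean against obese were 1.11 for Pik3cb, -1.15 for Trib3, -1.18 for Ccng2, -0.484 for Cited2 and -0.961 for Fbxo32. These are 5 of 11 named genes that were tested in both lines, where 34.2% of all 16529 genes were called. The 11 were named for large lean against obese changes in the same libraries. That choice favours a difference between the lines, so the count says nothing about the pathway. The differences of Igfbp5 (-0.22), Sh2b2 (0.54), Socs1 (-0.09), Socs3 (0.15), Cdkn1b (0.08) and Cat (0.07) were not called. The labels describe added insulin in the growth medium of NMuMG only, so line and medium cannot be told apart in any of these. In SkBr3 a library was flagged if the gap to its nearest library exceeded 0.829 of the group's range (Dixon's ratio). No library was flagged in the level of a member, over 12 groups of 4 libraries looked at. IRS2 in obese replicate 4, at 0.514 CPM against 0.349 to 0.378 in the other obese libraries, stayed below that ratio. Groups of 3 were not looked at.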

How the results depend on the processing

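Of 1566 values recomputed for 127 results on single genes, 1477 kept their direction and their side of the threshold, 50 lost the threshold, 16 came to pass it and 23 changed sign. DESeq2 size factors in edgeR changed none of the 127. Counts of called genes that moved were those of obese against control: in E0771 626 with no filter on low counts (360 in the fit reported), in SkBr3 384 with DESeq2, 539 with no filter and 849 with only those groups fitted (172), with 1 member called in the last (0), and in the interaction 422 with DESeq2 and 428 with no filter (279).

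Leaving out 1 library gave, for lean against obese, 6435 to 6899 genes in E0771 (4 members throughout), 4376 to 5136 in NMuMG (7 to 9 members), 5527 to 7324 in SkBr3 (2 to 4 members) and 5142 to 5521 for the interaction (5 to 6 members). For lean against control it gave 7123 to 7461 (5 members), 4779 to 5259 (6 to 9), 6345 to 7875 (4) and 5199 to 5559 (5 to 6). For obese against control it gave 79 to 498 (0 to 1), 384 to 893 (1 to 2), 20 to 374 (0) and 149 to 360 (0), and for the lines in control medium 13123 to 13222 (9). The signs that changed did so without 1 library and for values that were not called. These were Igf1r in E0771 lean against control (-0.086 to 0.062), in control medium between lines (-0.047 to 0.084) and in the interactions of obese against control (-0.11 to 0.016) and lean against obese (-0.15 to 0.0030). In E0771 they were Igfbp6 in obese against control (-0.12 to 0.053) and Irs2 in lean against obese (-0.11 to 0.037), and in SkBr3 obese against control IGF1R (-0.0089 to 0.071) and IRS2 (-0.30 to 0.12). In the interaction of obese against control they were Igf2r (-0.093 to 0.0015) and Igfbp4 (-0.037 to 0.022), and in that of lean against obese Cat (-0.090 to 0.361) and Socs1 (-0.187 to 0.065).

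Residual correlations of same-numbered replicates were low, at -0.0942 to 0.110 in E0771, -0.0285 to 0.0250 in NMuMG and -0.0452 to 0.0523 in SkBr3. In the same order, 5 of 9, 4 of 9 and 1 of 12 libraries correlated best with their own number. No chance level was computed for these counts, so a weak pairing cannot be told from none. With the replicate block, lean against obese gave 7150 called genes in E0771, 5190 in NMuMG, 6428 in SkBr3 and 5523 for the interaction, where Igfbp6 came to pass. The cause of these changes was not tested. Low counts limit IRS2 in SkBr3 and Igfbp6 in NMuMG.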
